A study of Mus musculus with 4 samples.

Results

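The genes described here build the DNA replication fork or supply it with nucleotides. A list of 34 such genes was matched to the array annotation, and a gene was kept where a row of the expression table carried its symbol and no other, with the brightest row taken where there were several. This gave 33 genes of the 22180 measured. Rfc4 dropped out because its row was also annotated to Eif4a2. The arrays were Affymetrix arrays hybridised with biotin-labelled total RNA of whole pancreas, from adult mice of 8 weeks. All mice, wild type (n = 2) and IFRD1 null (n = 2), had received cerulein at 100 µg/kg by intraperitoneal injection, 6 times a day on alternate days, and tissue was taken on day 5. Cerulein is a cholecystokinin analog that overdrives the acinar cells and causes pancreatitis, and day 5 was picked by the submitters as a time when the injured organ proliferates. Ifrd1 encodes a transcriptional co-regulator, and its null allele, the strain and the sex of the mice are not given in the sources used here. Untreated pancreas is not analysed here, so every comparison is between genotypes within injured tissue.

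In S phase the CMG helicase, made of the MCM ring, Cdc45 and the GINS complex, opens the double helix, primase and polymerase alpha lay down primers, and polymerases epsilon and delta extend them. Replication factor C loads the sliding clamp PCNA, RPA coats the exposed single strands, and FEN1, RNase H2 and DNA ligase 1 join the Okazaki fragments, while CAF-1, UHRF1 and DNMT1 restore nucleosomes and methylation behind the fork. Ribonucleotide reductase, thymidylate synthase, thymidine kinase and their neighbours make the deoxynucleotides. Many of these genes are textbook targets of E2F transcription factors and are transcribed as cells enter S phase, and in adult pancreas, where acinar cells rarely divide, they are known as marks of regenerating or metaplastic epithelium and of dividing stromal and immune cells.

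The expression values were the authors' deposited values, read here as log2 levels, and differences are Ifrd1 null minus wild type with limma's moderated standard error (SE). The Ifrd1 transcript read 9.04 and 9.07 on the wild-type arrays (1, then 2) and 6.99 and 7.09 on the null arrays (1, then 2), an order kept in all pairs below, so all 4 arrays matched their labels. The genotypes also differed in sex-linked RNAs: Xist was at 2.56 and 3.54 in wild type and 10.2 and 9.58 in the null, with the Y-linked Uty at 6.41 and 6.40 against 2.25 and 2.36. Genotype and sex as read from these genes cannot be told apart in these arrays. Acinar identity was clear in every array, with 13 of 13 measured acinar markers above the median level of all genes. Since the tissue was analysed in bulk, fewer cells of a type and less RNA per cell cannot be told apart. When changes of known size were simulated in data of this size, limma called 3.5% of those of 1 log2 unit and 74.4% of those of 2 log2 units, so single-gene calls at the size of the differences below were mostly out of reach.

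Most replication fork and nucleotide synthesis genes had lower mean levels in the Ifrd1 null pancreas, by small amounts. Of the 33 genes, 28 (84.8%) were lower and 5 higher, and the median difference was -0.13 on the log2 scale, or -0.0726 with quantile normalization. Over all genes 52.7% were lower with a median of -0.01, but bright genes leaned the same way as the members: 67.3% of genes above the median level were lower, with a median of -0.07. Of the members, 27 lay above that level, and 24 of them were lower (88.9%), with a median of -0.13. No member passed the threshold in limma (0 of 33 at adjusted p under 0.05; 2 lower and 1 higher at an unadjusted p under 0.05), where 0.00451% of all genes passed. At the same unadjusted limit 3.63% of all genes were lower and 3.27% higher, and of genes above the median level 5.41% and 1.23%. The 2 lower genes were Rfc5 and Gins1, and the higher gene was Tipin. The count of lower members was 25 with quantile normalization and 24 (72.7%) with cyclic loess, leaving 9 higher, against 49.2% lower over all genes with cyclic loess.

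Read array by array, the shift was present in all 4 pairings of a null with a wild-type array. Ifrd1 null 1 was below wild type 1 for 26 of 33 members (78.8%, against 59.0% of genes above the median level) and below wild type 2 for 23 (69.7%, against 64.1%). Ifrd1 null 2 was below wild type 1 for 23 members (69.7%, against 59.5%) and below wild type 2 for 27 (81.8%, against 62.8%). The excess over genes above the median level was thus smallest for Ifrd1 null 1 against wild type 2. Within a genotype the members split evenly: wild type 1 was below wild type 2 for 16 of 33, with a median difference of 0.05, and Ifrd1 null 1 was below Ifrd1 null 2 for 17 of 33, with a median difference of -0.02. Both null arrays lay below both wild-type arrays for 14 members (42.4%), against 19.7% of all genes and 29.1% of genes above the median level. The count was 10 (30.3%) with quantile normalization and 11 with cyclic loess, where 18.1% and 18.2% of genes above the median level did so. Both null arrays lay above both wild-type arrays for 2 members, Tipin and Dut, against 16.1% of all genes and 8.82% of genes above the median level. The gap between genotypes was wider than the range within either genotype for Rfc5 and Gins1 alone among the lower members, where 6.54% of all genes and 10.4% of genes above the median level had such a gap. At 2 of 33 members this count was no higher than those shares.

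**Figure D1:**
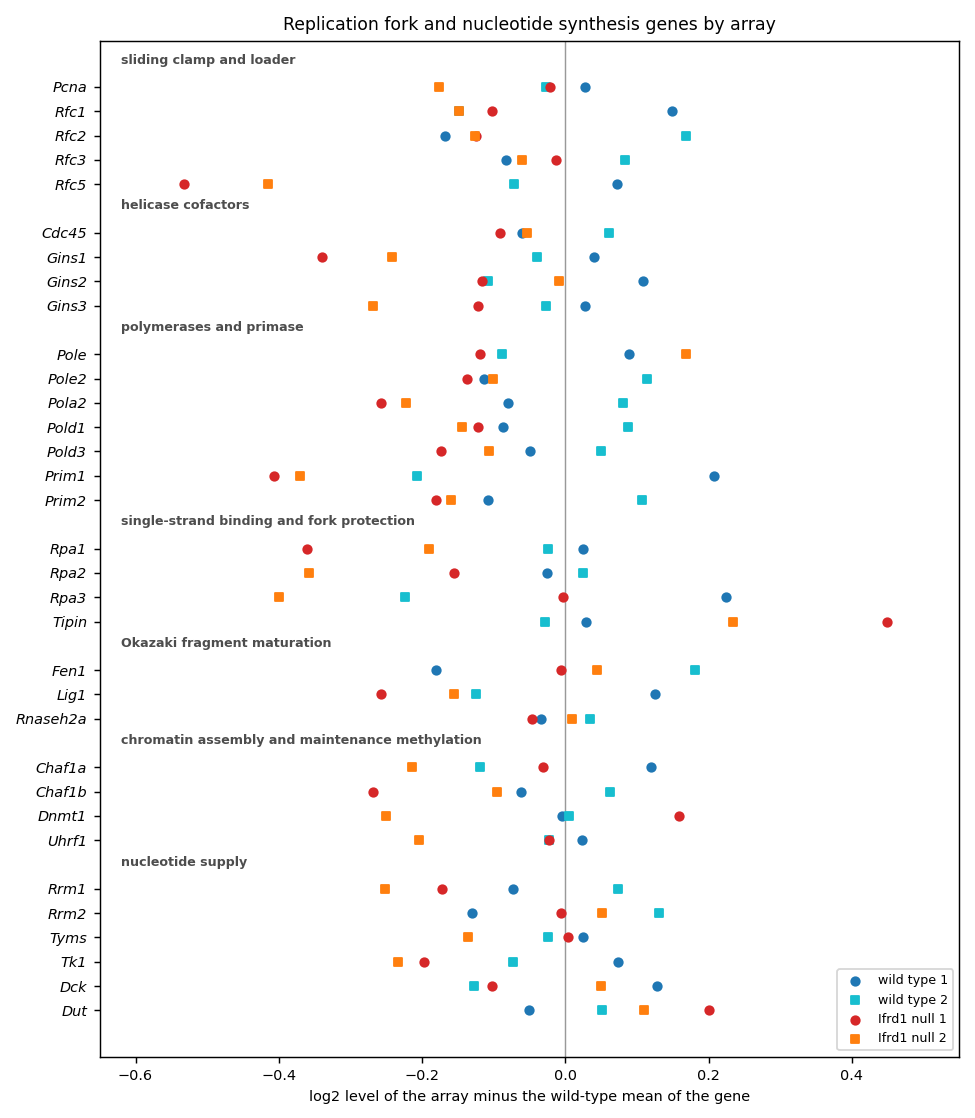
Level of each gene in each array relative to its wild-type mean (x axis, log2 units), with genes on the y axis grouped by role; circles and squares mark replicates 1 and 2. For Rfc5 and Gins1 both null points stand well left of the wild-type points, for Tipin both stand right of them, and for genes such as Dnmt1 and Rpa3 the null points lie far apart.

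Promoter windows of the members were searched for the words of known cell cycle regulators. The genes were chosen by role and many are textbook E2F targets, so their share of E2F words describes the list and not the genotypes. The RefSeq windows (GRCm38.p6) run from 250 bases before to 50 bases after an annotated start and were held for 28 of the 34 listed genes, Rfc4 included. E2F words, searched on both strands as TTTCCCGC, TTTGGCGC, TTTCGCGC and TTTGCCGC, none of which contains another word searched, were present in 8 of the 28 genes (28.6%), against 2.60% of all 27025 genes with a window and 3.29% of protein-coding genes. Counted by window, since several genes have more than 1 start, the shares were 23.5% of the members' 34 windows and 2.26% of all 32851 windows. The CCAAT word (CCAAT) was in 15 of 28 (53.6%, against 41.1% of all genes) and the CHR words (TTTGAA or TTCGAA) in 6 of 28 (21.4%, against 21.7%). The 8 genes with an E2F word were Dnmt1, Gins3, Lig1, Pold1, Pold3, Pole2, Rfc3 and Uhrf1. All 8 had a lower mean level in the null with the values as deposited, between -0.21 and -0.04 with a median of -0.13, but Dnmt1 turned to 0.05 with quantile normalization and 0.06 with cyclic loess. The 19 measured genes with a window and no E2F word had the same median of -0.13, with 16 lower and a wider range of -0.47 to 0.16. A match is a description of the letters and shows no binding. Only exact words were counted, so a window without one may hold near matches.

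The following stretches run from 90 bases before the start to the first 30 bases from it, written 5′ to 3′ on the gene's strand, with E2F words, or their reverse complements, in capitals. The first 4 show where the words sit near the start. The last pair belongs to the genes with the lowest differences, Rfc5 and Prim1, whose windows hold no exact match to these words. Both stretches hold near matches that were not counted. In Rfc5 ttgcgcgc differs from TTTCGCGC by a single letter, and in Prim1 gttcccgc differs so from TTTCCCGC. The positions are Rfc3 at chr5:151651179-151651298 (minus strand), Pole2 at chr12:69228161-69228280 (minus strand), Gins3 at chr8:95633469-95633588 (plus strand), Pold3 at chr7:100121473-100121592 (minus strand), Rfc5 at chr5:117388994-117389113 (minus strand) and Prim1 at chr10:128015125-128015244 (plus strand), all in GRCm38.p6.
Rfc3: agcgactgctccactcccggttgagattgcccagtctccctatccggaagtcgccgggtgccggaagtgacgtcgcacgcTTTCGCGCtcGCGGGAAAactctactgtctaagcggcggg
Pole2: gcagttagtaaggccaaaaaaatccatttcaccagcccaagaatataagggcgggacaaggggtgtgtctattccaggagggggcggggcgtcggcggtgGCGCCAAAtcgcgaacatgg
Gins3: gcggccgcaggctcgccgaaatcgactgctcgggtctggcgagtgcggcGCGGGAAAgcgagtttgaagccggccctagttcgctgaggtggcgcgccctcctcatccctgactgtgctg
Pold3: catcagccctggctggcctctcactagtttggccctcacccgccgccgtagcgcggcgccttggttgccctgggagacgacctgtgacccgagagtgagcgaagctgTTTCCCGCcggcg
Rfc5: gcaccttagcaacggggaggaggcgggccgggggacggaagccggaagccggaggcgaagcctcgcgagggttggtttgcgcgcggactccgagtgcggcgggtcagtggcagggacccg
Prim1: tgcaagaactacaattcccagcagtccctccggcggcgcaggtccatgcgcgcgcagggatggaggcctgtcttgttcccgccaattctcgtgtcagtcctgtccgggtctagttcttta
Rfc3 carries TTTCGCGC 10 bases before its start and, separated from it by 2 bases, GCGGGAAA at base 1, which is the reverse complement of another of the words, TTTCCCGC. Gins3 carries GCGGGAAA 41 bases before its start. In Pole2 the word GCGCCAAA begins at base 11 and in Pold3 TTTCCCGC begins at base 18, both after the annotated start. The Rfc3 promoter, with 2 words, belonged to a gene whose genotypes overlapped (difference -0.04 ± 0.11, SE), and the Rfc5 promoter, with none, to the gene with the widest gap.

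**Figure D2:**
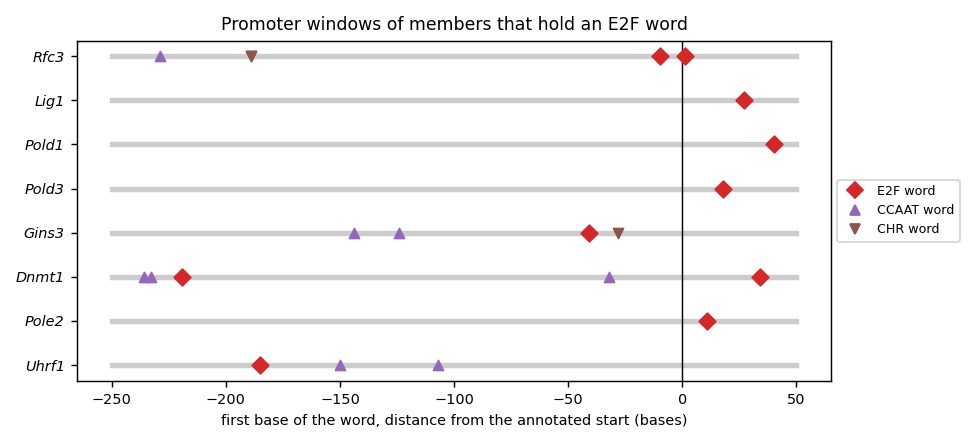
Position of E2F, CCAAT and CHR words (x axis, distance in bases from the annotated start) in the promoter windows of the 8 genes that hold an E2F word (y axis); grey bars show the extent of each window. In 7 of the 8 genes at least 1 E2F word begins within 41 bases of the start, before or after it, and in Uhrf1 the word lies 185 bases before it.

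The sliding clamp and its loader were lower by mean in 5 of 5 measured genes, though only Rfc5 separated the genotypes. Rfc5, a small subunit of the clamp loader, was at 5.71 and 5.57 in wild type 1 and 2 and at 5.11 and 5.23 in Ifrd1 null 1 and 2. Both null arrays stood below both wild-type arrays by more than either pair differed. The difference was -0.47 ± 0.12 (SE), or 1.39-fold lower (limma unadjusted p = 0.0126, adjusted p = 0.721). Pcna, the clamp that tethers the polymerases, was at 7.46 and 7.40 in wild type and at 7.41 and 7.25 in the null. Its genotypes overlapped, Ifrd1 null 2 alone was low, and the difference of -0.10 ± 0.11 turned to 0.0056 with cyclic loess. Rfc1, the large loader subunit, and Rfc2 each differed by -0.13, with SE of 0.14 and 0.15. Wild type 1 was the high array for Rfc1 and wild type 2 for Rfc2, and without that array the differences became 0.02 and 0.04. Rfc3 differed by -0.04 ± 0.11 and turned to 0.05 without wild type 2. Rfc5 thus had by far the most negative value of the 4 measured loader subunits, although no difference between subunits was tested.

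The helicase cofactors, which join the MCM ring to make it an active helicase, were lower by mean in 4 of 4 genes. Gins1 was at 3.67 and 3.59 in wild type and 3.29 and 3.38 in the null. Its genotypes were separated by more than the range within either of them, but all 4 values lay below the array medians (4.66 to 4.70), where signal above background is not shown. The difference was -0.29 ± 0.11 (SE), or 1.22-fold lower (limma unadjusted p = 0.0484, adjusted p = 0.721). Gins3, a partner in the same complex, read 5.37 and 5.32 in the wild-type arrays and 5.23 and 5.08 in the null arrays. The genotypes did not overlap and differed by -0.20 ± 0.11. Gins2 (-0.06 ± 0.13) and Cdc45 (-0.07 ± 0.11) overlapped between genotypes. Cdc45 also lay below the median of every array, and Gins2 turned to 0.05 without wild type 1.

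Polymerases and primase made up the group with the most separated genes: in 5 of 7 both null arrays lay below both wild-type arrays, a pattern that 29.1% of genes above the median level showed. Prim1, the catalytic subunit of primase, was at 5.96 and 5.54 in wild type 1 and 2 and at 5.35 and 5.38 in the null. Wild type 1 was far above the other arrays, and the wild-type range of 0.42 exceeded the gap of 0.16 between genotypes. The difference was -0.39 ± 0.17 (SE), or 1.31-fold lower (limma unadjusted p = 0.0798, adjusted p = 0.728). Prim2, the regulatory primase subunit, was at 6.23 and 6.44 against 6.16 and 6.18, a difference of -0.17 ± 0.12. Pola2, the regulatory subunit of the polymerase alpha complex that extends the primer, was at 5.89 and 6.05 against 5.71 and 5.75. The null values were close together and below both wild-type values, and the difference was -0.24 ± 0.11. Of the polymerase delta subunits, Pold1, the catalytic subunit, differed by -0.13 ± 0.12 and Pold3 by -0.14 ± 0.11, both with null arrays below wild-type arrays by small gaps (0.03 and 0.06). The polymerase epsilon genes overlapped: Pole2 differed by -0.12 ± 0.13 and Pole, the catalytic subunit, by 0.02 ± 0.15. Pole lay below the median of every array, and its sign was the opposite after quantile normalization (-4e-05) or cyclic loess (-0.02).

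Rpa1 and Rpa2 had lower values in both null arrays, with neither below an unadjusted p of 0.05 in limma, and Rpa3 overlapped between genotypes. Rpa1, the large subunit of the single-strand binding complex, was at 6.20 and 6.15 in wild type and 5.82 and 5.99 in the null. The wild-type arrays were nearly level and both null arrays were below them, with Ifrd1 null 1 the lowest. The difference was -0.28 ± 0.12 (SE), or 1.21-fold lower (limma unadjusted p = 0.0693, adjusted p = 0.727). Rpa2 was at 5.48 and 5.53 against 5.35 and 5.15, a difference of -0.26 ± 0.12, and here Ifrd1 null 2 was the lowest. Rpa3 was at 5.68 and 5.23 against 5.45 and 5.05, so the arrays of each genotype were further apart than the genotype means, and the difference was -0.20 ± 0.22. A second row of Rpa3 ran the other way, as given in the closing observations, the mean of both rows gave 0.08, and without wild type 1 the difference was 0.02.

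Tipin, which with Timeless holds the fork together when it stalls, was the member with the highest difference. It was at 4.11 and 4.05 in wild type and at 4.53 and 4.32 in the null. Both null arrays stood above both wild-type arrays, with every value below the array medians, where signal above background is not shown. The difference was 0.34 ± 0.12 (SE), or 1.27-fold higher (limma unadjusted p = 0.0456, adjusted p = 0.721). Its partner Timeless, which was not a member, was at 4.88 and 4.80 in wild type and 4.54 in both null arrays, a difference of -0.30 ± 0.10 (limma unadjusted p = 0.0381, adjusted p = 0.721). The null values of Timeless were identical and lay below the array medians, where signal above background is not shown.

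Of the genes that mature Okazaki fragments, Lig1, the ligase that seals them, was at 5.95 and 5.70 in wild type and 5.57 and 5.67 in the null. The groups did not overlap but wild type 2 and Ifrd1 null 2 were only 0.03 apart, and the difference was -0.21 ± 0.13. Fen1, the flap nuclease, differed by 0.02 ± 0.16, and Rnaseh2a, the catalytic subunit of RNase H2, by -0.02 ± 0.10. Rnaseh2a turned to 0.05 with quantile normalization and 0.06 with cyclic loess, and Fen1 to -0.0049 with the mean of its rows.

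Among the genes that rebuild chromatin behind the fork, Chaf1b, a CAF-1 subunit, was at 5.77 and 5.89 in wild type and 5.56 and 5.73 in the null, a difference of -0.18 ± 0.12 with the groups just apart. Chaf1a, its partner, differed by -0.12 ± 0.14 and overlapped. Uhrf1, which recruits DNMT1 to hemimethylated DNA, was at 5.35 and 5.31 against 5.31 and 5.12. Its wild type 2 and Ifrd1 null 1 values were identical, and the difference was -0.11 ± 0.12. Dnmt1, the maintenance methyltransferase, was at 7.21 and 7.22 in wild type and at 7.37 and 6.96 in the null. The null arrays lay on either side of the wild-type pair, and the difference of -0.05 ± 0.17 changed sign with quantile normalization (0.05) and cyclic loess (0.06).

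**Figure D3:**
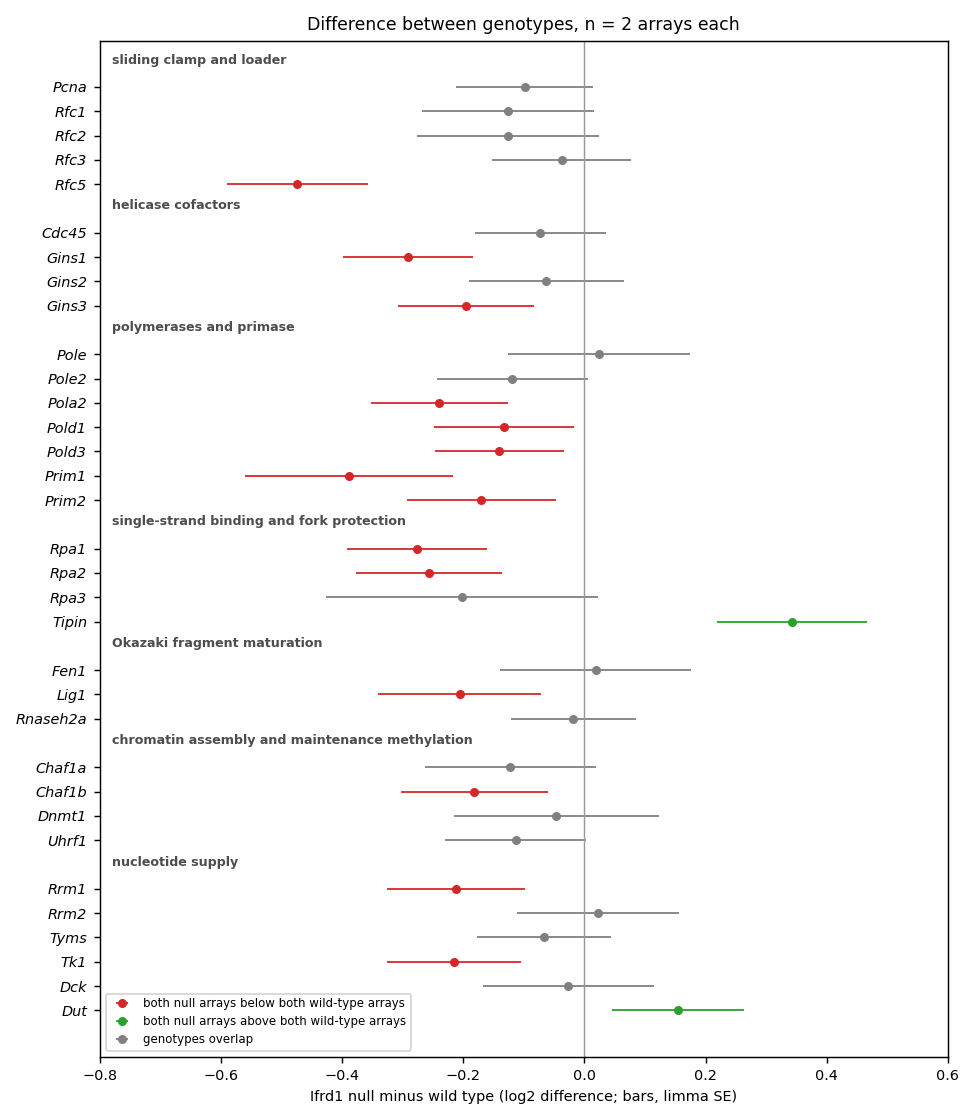
Difference between genotypes for each gene (x axis, log2, Ifrd1 null minus wild type; bars are limma SE, n = 2 arrays per genotype), grouped by role on the y axis. Red marks the 14 genes whose null arrays both lie below both wild-type arrays, green the 2 genes whose null arrays both lie above them, and grey the genes whose genotypes overlap.

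Nucleotide supply was divided. Rrm1, the large subunit of ribonucleotide reductase, was at 6.48 and 6.62 in wild type and at 6.38 and 6.30 in the null, a difference of -0.21 ± 0.11 without overlap. Rrm2, the small subunit that limits the enzyme to S phase, was at 4.91 and 5.17 against 5.04 and 5.09. Both null values lay between the wild-type values, and the difference was 0.02 ± 0.13. Tk1, the cytosolic thymidine kinase of dividing cells, was at 5.56 and 5.42 against 5.29 and 5.26, a difference of -0.22 ± 0.11 without overlap. Tyms, thymidylate synthase, differed by -0.07 ± 0.11 and Dck, deoxycytidine kinase, by -0.03 ± 0.14. Both overlapped, and both turned above 0 with quantile normalization (0.0036 and 0.03) and with cyclic loess (0.0075 and 0.03). Dut, the dUTPase that keeps uracil out of DNA, was the other gene with higher null arrays, at 5.78 and 5.88 in wild type and 6.03 and 5.94 in the null, a difference of 0.16 ± 0.11 (limma unadjusted p = 0.221, adjusted p = 0.778). The median of the 6 supply genes was -0.05, and it became 0.02 after quantile normalization or cyclic loess.

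Other genes of the same processes, listed by role, were set beside the members. Of 31 measured further fork and chromatin genes 15 were lower and 16 not lower. In 13 (41.9%) both null arrays lay below both wild-type arrays (29.1% of genes above the median level did). The list ran from Atad5, a clamp unloader, at -0.31 ± 0.16 to Rnaseh2b, an RNase H2 subunit, at 0.22 ± 0.11. Atad5 lay below the median of every array. Of the 31 genes 17 were lower with quantile normalization or cyclic loess, and 16 to 19 with an array left out (medians -0.0611 to -0.0186). Of this list 2 genes were lower at an unadjusted p under 0.05 in limma, and 0 passed over all genes. That count is near the 3.63% of all genes and 5.41% of genes above the median level that were lower at this limit. The 2 genes were Timeless, given above, and Chtf8, a subunit of an alternative clamp loader, at -0.27 ± 0.10. Of 30 further nucleotide synthesis genes 21 were lower, with a median of -0.13, and 0 were below an unadjusted p of 0.05 in limma in either direction. All 30 lay above the median level of all genes, and their share of lower genes was near the 67.3% of such genes (median -0.07). In 8 of the 30 both null arrays lay below both wild-type arrays, a smaller share than the 29.1% of genes above the median level. These synthesis genes ran from Tk2, the mitochondrial thymidine kinase, at -0.29 ± 0.12 to Prps1, which makes the ribose donor of purines, at 0.22 ± 0.11. Without Ifrd1 null 1 the median of these synthesis genes was 0.02, with 13 of 30 lower, whereas the median of the members without that array was -0.15.

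Genes of origin licensing, the step that loads the MCM ring before S phase, had more negative differences than the fork genes. Of 17, 16 were lower with a median of -0.26, and for 15 (88.2%) both null arrays lay below both wild-type arrays, against 19.7% of all genes and 29.1% of genes above the median level. Mcm5, a ring subunit, had the lowest difference of that list at -0.56 ± 0.13, and Cdc7, the kinase that fires origins, the highest at 0.07 ± 0.10. In limma 5 of the licensing genes were lower at an unadjusted p under 0.05 and 0 passed over all genes. At that limit 3.63% of all genes and 5.41% of genes above the median level were lower. Mitosis genes had a median of -0.02 with 17 of 29 lower. In 5 of them (17.2%, below both of those shares) both null arrays lay below both wild-type arrays. They ran from Ttk, a spindle checkpoint kinase that lay below the median on all 4 arrays, at -0.56 ± 0.18 to Kif2c, a spindle kinesin, at 0.19 ± 0.25. In limma 2 of the 29 mitosis genes, Ttk and Cdk1, were lower at an unadjusted p under 0.05 and 0 passed over all genes. That count is near the 3.63% and 5.41% given for the background. Cdk1, the kinase that drives entry into mitosis, differed by -0.49 ± 0.14. Mki67, the usual marker of cycling cells, was at 6.79 and 6.91 in wild type and 6.95 and 6.71 in the null. The mitosis median turned to 0.0070 with quantile normalization, to 0.02 without wild type 2 and to 0.03 without Ifrd1 null 2. It was -0.0729 without wild type 1 and -0.0768 without Ifrd1 null 1, where 21 of 29 were lower. Regulators of S-phase entry had a median of 0.02 with 10 of 22 lower, from Rb1 at -0.15 ± 0.11 to Cdc25a at 0.20 ± 0.23, and their median turned to -0.05 without Ifrd1 null 2. E2f1, an activator of S-phase genes, differed by -0.02 ± 0.12. The differences between these lists were not tested.

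**Figure D4:**
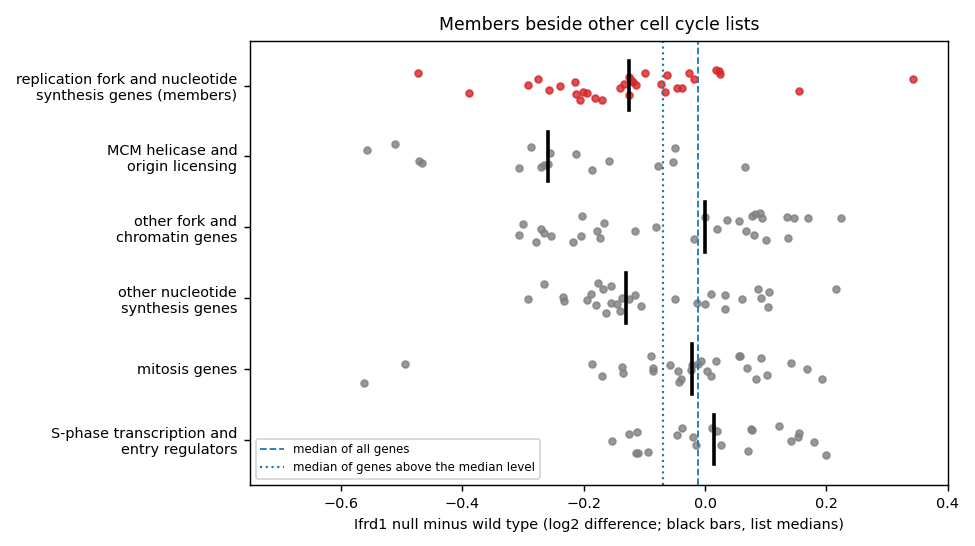
Differences between genotypes (x axis, log2, Ifrd1 null minus wild type) for the members and 5 further lists (y axis), each point a gene and each black bar a list median; points are spread vertically for visibility. The licensing median (-0.26) lies left of the members' median (-0.13), and the medians of mitosis genes (-0.02), entry regulators (0.02) and other fork genes lie near 0.

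Markers of several cell types also differed in mean level, and their part in the values above was not tested. All 13 duct, all 11 islet and 10 of 12 endothelial markers lay above the median level of all genes. Of genes above that level 67.3% were lower, with a median of -0.07 (50.6% with quantile normalization and 49.6% with cyclic loess). The shares lower among duct (76.9%), endothelial (75.0%) and islet markers (72.7%) were thus little above that of bright genes. In limma 4 of 13 duct and 2 of 12 endothelial markers were lower at an unadjusted p under 0.05, and 0 were higher. Of genes above the median level 5.41% were lower at that limit. Both null arrays lay below both wild-type arrays for 5 of the duct and 6 of the endothelial markers, against 29.1% of such genes. Duct and metaplasia markers were lower in 10 of 13 measured genes (8 with quantile normalization or cyclic loess), with a list median against the wild-type mean of -0.23 in Ifrd1 null 1 and -0.39 in Ifrd1 null 2. Their summed level, taken as log2 of the summed linear values, was 13.70 and 13.73 in the wild-type arrays and 13.55 and 13.67 in the null arrays, so both null arrays were below, and 0 of the markers lay below the median of every array. Endothelial markers were lower in 9 of 12 (6 with cyclic loess or without Ifrd1 null 2, where the median of -0.09 became -0.0131), with summed levels of 9.98 and 10.02 in wild type and 9.96 and 9.71 in the null, and 2 of them lay below the median of every array. Higher values ran through 13 of 13 T and NK cell markers (12 with quantile normalization or cyclic loess; 4 lower without wild type 1; summed levels 7.85 and 8.11 against 8.53 and 8.12), with 7 of 13 below the median of every array. Neutrophil markers had higher mean values in 8 of 9 (summed levels 7.53 and 7.23 against 7.91 and 7.54), with 7 of 9 below that median, but this rested on single arrays. Their median of 0.22 became 0.0054 without wild type 2, with 4 of 9 lower, and -0.0219 without Ifrd1 null 1, with 5 of 9 lower. Only 3 of 13 T and NK cell markers and 2 of 9 neutrophil markers lay above the median level of all genes. Higher genes were mostly dim ones: 10466 of all 22180 genes were higher, but only 3617 of the 11090 above the median level. Islet endocrine markers were lower in 8 of 11, with a median of -0.27, a value of -0.32 in Ifrd1 null 1 and -0.29 in Ifrd1 null 2 against the wild-type mean, and 0 of them below the median of every array. Of these markers 4 were lower at an unadjusted p under 0.05 in limma (G6pc2, Iapp, Ins2 and Chga), against 5.41% of genes above the median level. Gcg, glucagon, and Sst, somatostatin, were higher in both null arrays. The summed levels of the islet markers overlapped between genotypes, at 11.86 and 11.67 in wild type and 11.73 and 11.75 in the null.

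The null arrays lay on opposite sides of the wild-type mean for several cell types and on the same side for others. Against the wild-type mean, acinar markers had a median of -0.23 in Ifrd1 null 1 and 0.19 in Ifrd1 null 2, stellate and fibroblast markers 0.0083 and -0.45, macrophage markers 0.21 and -0.39, B and plasma cell markers 0.70 and -0.32, and adipocyte markers 0.69 and -0.37. Both null arrays were on the same side for islet markers (-0.32 and -0.29), duct markers (-0.23 and -0.39), endothelial markers (-0.0131 and -0.20) and T and NK cell markers (0.41 and 0.20). On the same scale the members' median was -0.12 in the first null array and -0.15 in the second, with 0.02 and -0.02 in the wild-type arrays. The members' median was -0.15 without Ifrd1 null 1 and -0.12 without Ifrd1 null 2.

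**Figure D5:**
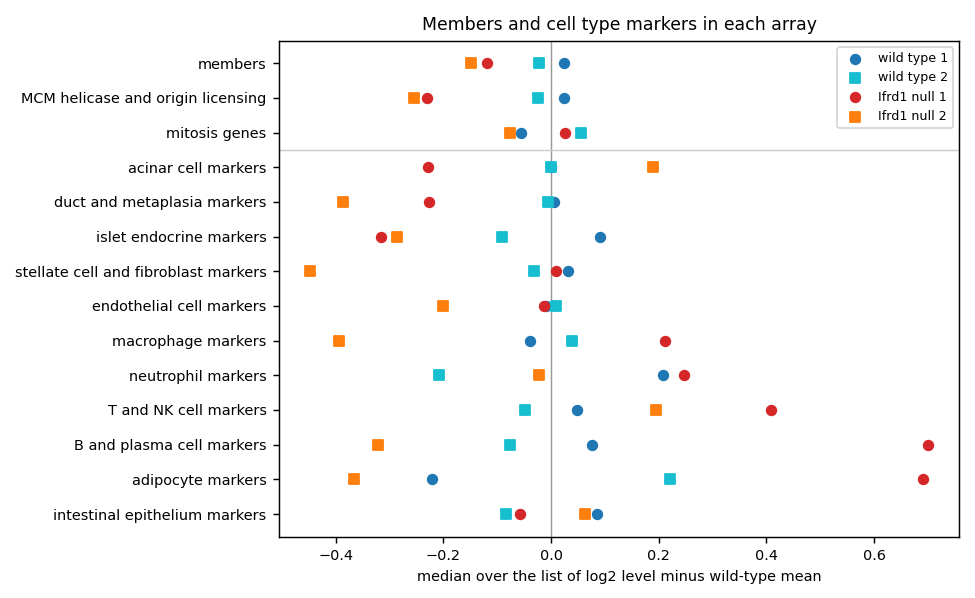
Median over each list of the log2 level relative to the wild-type mean (x axis) in each of the 4 arrays, for the members, 2 related lists and 11 lists of cell type markers (y axis). The null arrays lie close together for the members (-0.12 and -0.15), the licensing genes (-0.23 and -0.25) and the islet markers (-0.32 and -0.29), and far apart for B and plasma cell markers (0.70 and -0.32) and adipocyte markers (0.69 and -0.37).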

How the data were processed

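The deposited table held 1 value per array and transcript cluster for 4 arrays. Per the labels' protocols, RNA was extracted with Trizol and labelled with biotin. The values the authors deposited are treated as log2 levels; the log base was inferred from their range (0.218 to 13.9), and the summary, background and normalization methods are not given in the sources used here. Of 41345 rows, 23521 had 1 symbol, 1814 several and 16010 none; the brightest row per symbol left 22180 genes. Values were equal on at least 2 arrays for 14.1% of genes, Rfc1 and Uhrf1 among them. No detection call was used.

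Groups were compared with limma 3.58.1 (lmFit, eBayes) in R 4.3.3, two-sided, with Benjamini-Hochberg adjustment over all genes and a threshold of 0.05. The number of arrays limits the precision. With 2 arrays against 2 an exact permutation test cannot go below p = 0.333, so none was run. The labels call the samples biological replicates. Limma was tested on simulated data (20 runs, 200 changed genes among 22180). Members and lists were chosen with earlier results of these data known, by role. All members with a row are named, and of each other pathway list the lowest and highest gene. Mki67, E2f1, Timeless, Chtf8, Cdk1, G6pc2, Iapp, Ins2, Chga, Gcg, Sst, Agr2, Muc2 and Cxcl13 were added, all but Mki67 after their values were seen. Alternatives were quantile normalization, median centring, cyclic loess, a level filter, the mean of a gene's rows, trend and robust eBayes, a replicate block and leaving out each array. Lymph node and germinal centre and intestinal marker lists were also computed, with 3 of 5 and 7 of 15 measured genes lower. Their summed levels overlapped between genotypes, and 10 of the 15 intestinal markers lay below the median of every array. Single arrays stood out for some genes. Agr2 was at 6.06 and 4.00 in wild type and 3.47 and 3.04 in the null, and Muc2 at 5.88 and 4.09 against 4.23 and 4.65. Cxcl13 was at 8.41 and 8.89 against 10.1 and 6.46. Whether gut or lymph node tissue was sampled with the pancreas was not tested. Promoter words were matched in RefSeq windows.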

Additional observations from a re-analysis of the deposited data

How the results depend on the processing

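The count of members past the threshold was 0 under all 11 alternatives run. The members' median stayed below 0 in each of them: -0.0726 with quantile normalization, -0.0871 with cyclic loess, -0.14 with arrays centred on their medians, and from -0.15 to -0.12 with an array left out. Members lower in the null, a count added after seeing the data, numbered 24 to 29. Members lower at an unadjusted p under 0.05 in limma numbered 1 with median centring, among genes above the median level, with trend and robust eBayes and with the replicate block, and 1 to 3 with an array left out. Members with both null arrays below both wild-type arrays numbered 19 to 22 with an array left out, a looser condition that 31.4% to 38.3% of all genes and 39.5% to 50.1% of genes above the median level then met; without Ifrd1 null 2 it was 57.6% of members against 50.1%. Over all genes 1 gene passed the threshold (Uty), against 5 with median centring, 4 with cyclic loess, 5 with trend and robust eBayes, 4 with the replicate block, 0 among genes above the median level and 0 with any array left out (0 to 0); the cause was not tested.

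The sign held for 20 of 33 members under every alternative. It turned with quantile normalization and cyclic loess for Pole (-4e-05 and -0.0153), Rnaseh2a (0.0523 and 0.0606), Dnmt1 (0.0498 and 0.0554), Tyms (0.0036 and 0.0075) and Dck (0.0321 and 0.0262), with cyclic loess for Pcna (0.0056), and with the mean of a gene's rows for Rpa3 (0.0777) and Fen1 (-0.0049). With an array left out the differences ranged from -0.12 to 0.17 for Pole, -0.0531 to 0.0161 for Rnaseh2a, -0.25 to 0.16 for Dnmt1, -0.14 to 0.0034 for Tyms, -0.15 to 0.10 for Dck, -0.43 to 0.0228 for Rpa3, -0.16 to 0.20 for Fen1, -0.28 to 0.0231 for Rfc1, -0.17 to 0.0455 for Gins2, -0.11 to 0.15 for Rrm2, -0.29 to 0.0425 for Rfc2 and -0.12 to 0.0454 for Rfc3. Same-numbered arrays did not deviate together (correlation of deviations -0.04), so the replicate numbers were not treated as pairs. The replicate block left the members' median at -0.13 and 0 members past the threshold.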

Other observations

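Rows of the table that the gene rule set aside also carried members. The second row of Rpa3 was at 4.88 and 5.22 in wild type 1 and 2 and at 5.21 and 5.60 in Ifrd1 null 1 and 2, a difference of 0.36, opposite in sign to the brighter row (-0.20). Across the 4 arrays the rows of this gene ran in opposite order, with wild type 1 the highest array in the brighter row and the lowest in the other, and Ifrd1 null 2 the reverse. The row shared by Rfc4 and Eif4a2 was at 5.83 and 5.77 in wild type and at 5.32 and 5.81 in the null, so Ifrd1 null 1 alone was low. The second row of Rpa1 differed by -0.14, the sign of its brighter row, with 2.87 its highest value, below the array medians, where signal above background is not shown. Second rows of Pole (0.14), Fen1 (-0.03), Dut (0.06) and Rrm2 (-0.0046), and a row shared by Tyms and its pseudogene (0.03), likewise lay below the array medians.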
